A study of Saccharomyces cerevisiae with 6 samples.

Results

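The respiration-deficient (petite) derivative of a xylose-engineered budding yeast was compared with its aerobically grown parent, both on glucose, across all yeast genes of an Affymetrix array. The comparison rests on 2 of the 6 arrays of the series, 1 from each culture, and takes in 5656 genes, of which 5272 lay above the intensity floor on at least 1 array of the pair. The petite strain, FPL-YSX3P, derives from YSX3, and both carry the same engineered genotype: MATalpha, with XYL1 integrated at leu2 (leu2::LEU2-XYL1), XYL2 at ura3 (ura3::URA3-XYL2) and XYL3 at a Ty3 element (Ty3::NEO-XYL3). XYL1, XYL2 and XYL3 come from Pichia stipitis, a yeast that ferments the pentose xylose, and encode xylose reductase, xylitol dehydrogenase and xylulokinase. Petite cells were grown in YP medium (yeast extract and peptone) with glucose and harvested at an OD600 of 1. The parent was grown aerobically with 20 g/L glucose (200 ml of YP, a flask of 1000 ml, 300 rpm) and was likewise harvested at an OD600 of 1. The labels give no sugar concentration, volume or shaking for the petite culture, and they do not say how the mutant was obtained or whether it is 1 clone. The other 4 arrays hold petite cells moved from glucose into xylose for 24 hours, the aerobic parent on xylose, and oxygen-limited parent cultures on glucose and on xylose (40 g/L sugar, harvested at an OD600 of 30).

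Petite yeast cannot respire, usually because the mitochondrial genome is damaged or lost, and lives by fermentation. That genome encodes a few core subunits of the respiratory chain and ATP synthase, whereas most subunits come from the nucleus and many of their genes are driven by the Hap2/3/4/5 activator. Respiration-deficient cells are also known for the retrograde pathway, in which Rtg2 lets Rtg1 and Rtg3 enter the nucleus and activate genes such as CIT2, which supplies citrate outside the mitochondrion. In cells without mitochondrial DNA the regulator Pdr3 is known to activate pleiotropic drug resistance genes such as the efflux pump gene PDR5.

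With 1 array per condition there is no replicate error, no test and no p-value, and every difference below describes these arrays. Values are intensities scaled to a common array median. Values below a floor of 61.7 (the 25th percentile) count as that floor, so a difference with 1 array at the floor is a bound, written "at least". Differences are log2 of petite over aerobic parent, and a gene is counted as higher or lower when they reach 2-fold. As the only internal yardstick, 217 genes with several measurable probe sets had an SD of 0.51 between the log2 differences of probe sets for 1 gene. Intensities of different genes are not comparable as levels. The deposited median intensity was 157 on the petite array, against 127 on the aerobic array. The share of genes above the floor was 90.5% on the petite array and 88.9% on the aerobic array. The actin control probe sets, which report how far cDNA reached towards the 5′ end, gave a 3′ to 5′ ratio of 2.15 on the petite glucose array, against 1.62 on the aerobic glucose array. On xylose that ratio was 1.84 for petite cells and 1.26 for the aerobic parent. For 141 of the 217 genes with several probe sets the log2 difference of petite over parent was lower in the dimmer ones. Over all 217 the dimmer ones had a median difference of -0.31 and the brightest ones -0.09. The part of these signs of RNA quality in the results below was not tested.

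The genome-wide picture was of modest differences around a core of large ones. In petite cells the mitochondrial genome's transcripts and nuclear genes of respiratory complexes III and IV were lower, as were ribosome biogenesis genes. Many heat shock and stress genes, some pheromone-response genes and most of the seripauperin family were higher. Of 5272 genes compared, 249 (4.72%) were at least 2-fold higher in petite cells, 65 of them as bounds, and 266 (5.05%) were at least 2-fold lower, 22 as bounds, so that 9.77% passed 2-fold either way. At 4-fold the counts were 31 higher and 13 lower, and 68.7% of genes lay within 1.5-fold. Differences had a median of -0.12, an SD of 0.63 and an interquartile range of -0.48 to 0.25. The split between higher and lower depended on the scaling. With the deposited values unscaled, which moved the median of all genes by 0.29, 471 genes were higher and 105 lower, so that 81.8% of calls were higher, against 48.3% with scaling. Quantile normalization gave 259 higher and 184 lower, or 58.5% higher. Brighter genes were lower on the whole: the median difference was 0.03 in the dimmest of 4 equal groups of genes and -0.32 in the brightest. Chromosome medians ran from 0.16 above the all-gene median for chromosome I to 0.14 below it for chromosome XIV (-0.14), so no chromosome stood apart by a 2-fold step.

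**Figure D1:**
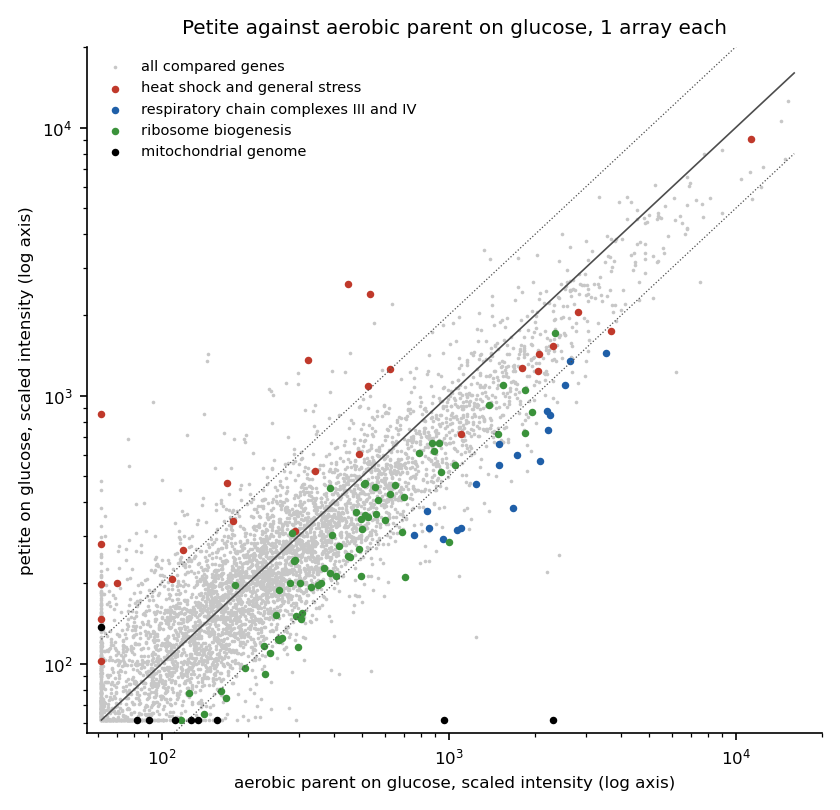
Scaled intensity of each compared gene in petite cells (vertical axis) against the aerobic parent (horizontal axis), both on glucose and on log axes, 1 array each. Grey points are all 5272 genes, coloured points are members of 4 lists, and values under the floor of 61.7 are drawn at it. The solid line marks equality and the dotted lines 2-fold. All 18 genes of complexes III and IV lie below equality, and the stress genes HSP26 and UBI4 lie far above it.

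The mitochondrial genome bears most directly on the label. Its transcripts were near or below the floor on the petite array for nearly every gene, and clearly above it in the aerobic parent for the brightest. Of 31 probe sets, 6 of which are shared by several genes, 2 lay above the floor on the petite array, against 15 on the aerobic array. Their summed intensity was 501.3 on the petite array and 5398 on the aerobic array. Petite values were the lower for 30 of the 31, although 1 of these read about 0 on both arrays. The oxygen-limited parent on glucose had a sum of 2979, so the petite array was also below this second respiration-competent culture. On xylose the sums were 584 for petite cells and 5964 for the aerobic parent, with 1 and 17 probe sets above the floor. The cDNA was primed with oligo-dT, and yeast mitochondrial messages lack the long poly(A) tails of nuclear ones, so these signals compare arrays and do not measure levels.

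OLI1, which encodes the ring subunit of ATP synthase, read 14 in petite cells and 2313 in the aerobic parent, a log2 difference of -5.23 or lower. COX1, the catalytic subunit of cytochrome c oxidase, read 42 in petite cells against 963 in the aerobic parent, a difference of -3.96 or lower. Both genes have dimmer probe sets. The second one of OLI1 was below the floor in both strains, at 5 in petite cells and 13 in the aerobic parent. The others of COX1 read 18 in petite cells against 92 in the aerobic parent, and 66 in petite cells against 85 in the aerobic parent. COB, cytochrome b of complex III, read 7 in petite cells and 134 in the aerobic parent, and ATP8, an ATP synthase subunit, read 3 in petite cells and 126 in the aerobic parent. AI5_ALPHA, an open reading frame within an intron of COX1, read 2 in petite cells and 155 in the aerobic parent. ATP6, another ATP synthase subunit, read 7 in petite cells and 82 in the aerobic parent. COX2 and VAR1, an oxidase subunit and a mitochondrial ribosomal protein, were below the floor in both strains, so no fold is given. The probe set of COX3, the remaining mitochondrial oxidase subunit, went the other way. It read 137 in petite cells, against 58 in the aerobic parent, at least 1.15 higher, and on xylose 204 in petite cells against 44 in the aerobic parent, at least 1.73 higher. What this probe set detects in petite cells was not tested, so the value is not read as a COX3 transcript level. The oxygen-limited parent cultures read 78 on glucose and 149 on xylose for COX3. In bulk cultures, fewer cells with a transcript and less of it per cell cannot be told apart.

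**Figure D2:**
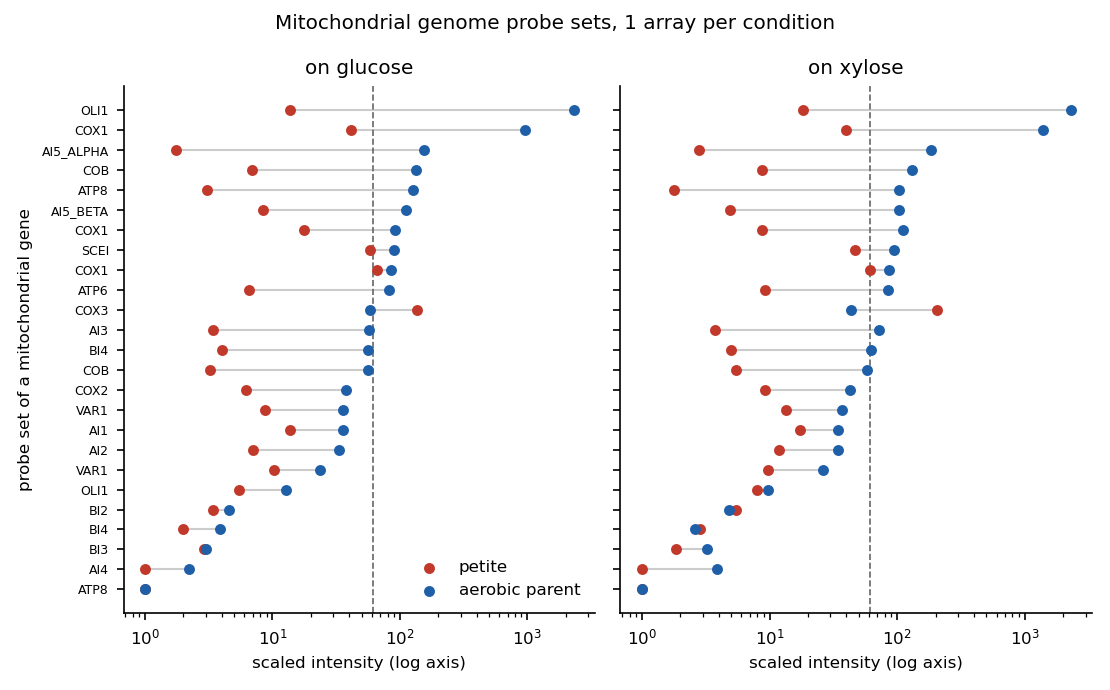
Scaled intensity (log axis) of the 25 mitochondrial probe sets that name 1 gene, in petite cells (red) and the aerobic parent (blue), on glucose (left) and xylose (right), 1 array each. Rows are probe sets ordered by the aerobic glucose value, several genes have more than 1 row, the dashed line is the floor of 61.7, and values under 1 are drawn at 1. OLI1, by its brighter probe set, has the widest gap on both sugars, and COX3 is the row where petite cells read higher by a clear margin on both.

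Nuclear genes for the protein complexes that work with these mitochondrial subunits were lower in petite cells. Of 18 genes for complexes III and IV (cytochrome bc1 and cytochrome c oxidase, with cytochrome c), 17 were at least 2-fold lower and 0 higher, beside 5.05% and 4.72% of all genes, with a list median of -1.42 against -0.12 for all genes. The lower count was 13 with unscaled values and 14 after quantile normalization, with medians of -1.11 and -1.19. COX5A, the aerobic isoform of an oxidase subunit, read 383 in petite cells and 1674 in the aerobic parent, a difference of -2.13. RIP1, the Rieske iron-sulfur protein of complex III, read 573 in petite cells and 2086 in the aerobic parent (-1.87). The oxidase subunit gene COX4 read 321 in petite cells against 1107 in the aerobic parent (-1.79), and COX6, another oxidase subunit gene, read 317 in petite cells against 1069 in the aerobic parent (-1.75). The exception was CYC1, the main cytochrome c gene, which read 1351 in petite cells and 2655 in the aerobic parent and missed 2-fold narrowly (-0.97). Taking the xylose arrays too, 15 of these genes were at least 2-fold lower in petite cells on both sugars, and the xylose median was -1.36.

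ATP synthase followed, with more spread. Of its 17 nuclear genes, 9 were at least 2-fold lower and 1 higher, and the median was -1.02. ATP3, the gamma subunit of the motor's central stalk, read 371 in petite cells and 1380 in the aerobic parent (-1.90). ATP5, a stalk subunit, read 317 in petite cells and 1173 in the aerobic parent (-1.89), and ATP1, the alpha subunit of the catalytic head, read 946 in petite cells against 2785 in the aerobic parent (-1.56). INH1, an inhibitor of ATP hydrolysis by the enzyme, read 179 in petite cells against 596 in the aerobic parent (-1.74). STF2, a stabilising factor of that inhibition, read higher, at 630 in petite cells and 289 in the aerobic parent (1.12). The xylose pair had a median of -1.42 and 8 genes lower on both sugars.

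The dehydrogenases that feed the chain were mixed. SDH2, the iron-sulfur subunit of succinate dehydrogenase, read 398 in petite cells against 1324 in the aerobic parent (-1.74), and NDI1, the internal NADH dehydrogenase, read 212 in petite cells against 525 in the aerobic parent (-1.31). CYB2, L-lactate cytochrome c oxidoreductase, read higher, at 188 in petite cells and 65 in the aerobic parent (1.52), and so did the external NADH dehydrogenase gene NDE2, at 136 in petite cells and 56 in the aerobic parent (at least 1.14). Of 11 genes 2 were higher and 2 lower, with a median of -0.71. In the tricarboxylic acid (TCA) cycle and pyruvate dehydrogenase, 4 of 16 genes were lower and 1 higher, with a median of -0.53. MDH1, mitochondrial malate dehydrogenase, read 1114 in petite cells against 2820 in the aerobic parent (-1.34). LPD1, a dehydrogenase subunit shared by several of these enzymes, read 1008 in petite cells against 2168 in the aerobic parent (-1.10), and LAT1, of pyruvate dehydrogenase, read 864 in petite cells against 1762 in the aerobic parent (-1.03). PDX1, another pyruvate dehydrogenase subunit, read 1108 in petite cells against 300 in the aerobic parent (1.89). With unscaled or quantile-normalized values the count of lower TCA genes was 1.

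The machinery that builds and maintains mitochondria differed little. Of 70 mitochondrial ribosome genes, 1 was higher and 2 were lower, with a median of -0.30, which was 0.01 with unscaled values. Of 34 import and mitochondrial chaperone genes, 0 were higher and 1 lower (median -0.44), and 0 were lower with unscaled or quantile-normalized values. The 45 respiratory assembly factors had 2 higher and 1 lower, with a median of -0.02 that was 0.04 after quantile normalization and 0.30 with unscaled values. The 16 genes of mitochondrial DNA maintenance and transcription had 0 past 2-fold in either direction. HAP1, a separate heme-responsive activator, and the 4 Hap complex genes HAP2, HAP3, HAP4 and HAP5 did not pass 2-fold. The lowest of these 5 missed it narrowly, at -0.99. With the trend of lower differences in brighter genes removed, 1 was at least 2-fold lower. HAP4, the regulated activating subunit, read 262 in petite cells and 342 in the aerobic parent (-0.39).

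The genes known as retrograde targets were not higher in these petite cells. Of 9 compared, 0 were at least 2-fold higher and 5 were lower, with a median of -1.23. The lower count was 3 with unscaled values (median -0.93), where CIT2 (-0.95) and CIT1 (-0.93) missed 2-fold, and 4 after quantile normalization (median -0.99), where CIT2 stood at -1.02 and CIT1 at -0.99. CIT2, peroxisomal citrate synthase and the standard reporter of the pathway, read 672 in petite cells and 1608 in the aerobic parent (-1.26). Pyruvate carboxylase PYC1 read 263 in petite cells against 903 in the aerobic parent (-1.78), and DLD3, a D-2-hydroxyglutarate transhydrogenase, read 242 in petite cells against 825 in the aerobic parent (-1.77). ATO3, a putative ammonium exporter, read 382 in petite cells against 1163 in the aerobic parent (-1.60). CIT1, mitochondrial citrate synthase, read 982 in petite cells and 2307 in the aerobic parent (-1.23). Unlike CIT1, the other TCA genes that depend on the pathway in respiration-deficient yeast stood close to the parent: ACO1 at 0.23, IDH1 at -0.28 and IDH2 at 0.04. PDH1, of propionate metabolism, stood at -0.90. The values of CIT2 in the 6 arrays were 672 for petite on glucose, 1608 for aerobic on glucose, 1737 for oxygen-limited on glucose, 1341 for petite on xylose, 1388 for aerobic on xylose and 406 for oxygen-limited on xylose. The petite glucose array thus lay below 4 of the other 5. On xylose the CIT2 difference was -0.05, while ACO1 stood at -2.66, IDH2 at -1.81 and IDH1 at -0.22. Of the list, 2 were lower on both sugars.

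The regulators themselves did not pass 2-fold in either direction. RTG1 lay below the floor on both arrays, RTG2 read 288 in petite cells and 390 in the aerobic parent (-0.44), and RTG3 read 118 in petite cells and 113 in the aerobic parent (0.07). Among 16 drug resistance genes 3 were higher and 1 lower, with a median of -0.11 that was 0.20 with unscaled values. The higher ones were PDR15, a transporter gene close to PDR5, at 276 in petite cells against 71 in the aerobic parent (1.96), PDR10, another transporter of that family, at 335 in petite cells against 111 in the aerobic parent (1.59), and RTA1, a membrane protein gene, at 156 in petite cells against 35 in the aerobic parent (at least 1.34). All 3 were also at least 2-fold higher on xylose. PDR16, a phosphatidylinositol transfer protein, was lower, at 189 in petite cells and 546 in the aerobic parent (-1.53). PDR5 itself read 1543 in petite cells and 2392 in the aerobic parent (-0.63) by its brightest probe set. Its next brightest stood at -0.87, and the mean over its probe sets was -0.97. PDR3 read 148 in petite cells and 80 in the aerobic parent (0.89).

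**Figure D3:**
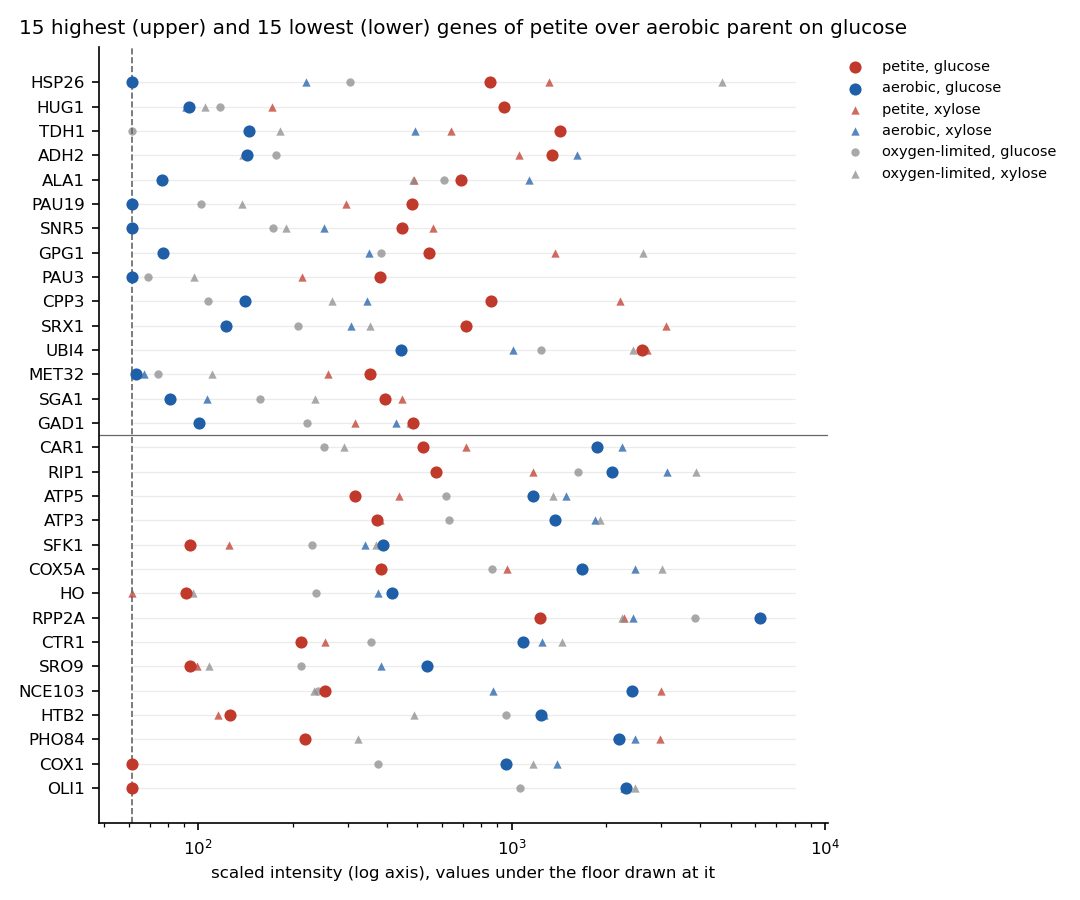
Scaled intensity (log axis) in each of the 6 arrays for the 15 highest and the 15 lowest genes of petite over aerobic parent on glucose. Large red and blue circles are the petite and aerobic glucose arrays, triangles the xylose arrays and grey symbols the oxygen-limited parent, with values under the floor drawn at it. HSP26, HUG1 and TDH1 head the upper part, and OLI1 and COX1 close the lower part with petite values at the floor.

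Among the 15 highest genes, stress genes, an ethanol-use gene and a DNA-damage gene led. HSP26, a small heat shock protein, read 851 in petite cells and 60 in the aerobic parent, at least 3.79 higher. HUG1, an inhibitor of ribonucleotide reductase that is induced by DNA damage, read 948 in petite cells and 94 in the aerobic parent (3.34), while its other 4 arrays read between 91 and 172. TDH1, a glyceraldehyde-3-phosphate dehydrogenase isoform, read 1426 in petite cells and 146 in the aerobic parent (3.29). ADH2, the glucose-repressed alcohol dehydrogenase that consumes ethanol, read 1350 in petite cells against 143 in the aerobic parent (3.23). On xylose ADH2 read 1056 in petite cells and 1621 in the aerobic parent, while the oxygen-limited parent read 139 on xylose and 177 on glucose. ALA1, alanyl-tRNA synthetase, read 688 in petite cells and 77 in the aerobic parent (3.17). Its other 4 arrays read between 483 and 1138, so here the aerobic glucose array is the one that stands apart. UBI4, the stress polyubiquitin gene, read 2608 in petite cells and 445 in the aerobic parent (2.55).

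The remaining higher genes of the 15 were GPG1, a G-protein subunit mimic (2.82), CPP3 (2.61), SRX1, a sulfiredoxin of peroxide defence (2.55), MET32, a regulator of sulfur genes (2.48), SGA1, a sporulation glucoamylase (2.28), GAD1, glutamate decarboxylase (2.27), the small nucleolar RNA gene SNR5 (at least 2.85), and the seripauperins PAU19 (at least 2.96) and PAU3 (at least 2.62). SNR5 makes an RNA without a poly(A) tail, which oligo-dT priming does not measure as a level. Of the 15, 12 had the same sign on xylose and 10 were at least 2-fold higher there. The petite array lay outside the range of the 4 arrays outside the pair for 6 of the 15, and the aerobic array for 9.

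Among the 15 lowest genes, OLI1 and COX1 were followed by genes of uptake, chromatin and respiration. PHO84, the high-affinity phosphate transporter, read 219 in petite cells and 2209 in the aerobic parent (-3.33). On xylose it stood at 2983 in petite cells and 2484 in the aerobic parent, so the low value was not shared by the other petite array. HTB2, a histone H2B gene, read 126 in petite cells and 1246 in the aerobic parent (-3.30) and was as low on xylose, at 116 in petite cells and 1270 in the aerobic parent (-3.45). Its paralogue HTB1, outside the naming rule and chosen after its values were seen, read 1122 in petite cells and 2062 in the aerobic parent (-0.88). NCE103, carbonic anhydrase, read 254 in petite cells against 2417 in the aerobic parent (-3.25). CTR1, the high-affinity copper transporter, read 212 in petite cells and 1086 in the aerobic parent (-2.35) and was lower on xylose too (-2.30). SRO9, an RNA-binding protein, stood at -2.51, RPP2A, an acidic ribosomal stalk protein, at -2.33, and HO, the mating-type switching endonuclease, at -2.18. SFK1, a plasma membrane protein, stood at -2.04 and CAR1, arginase, at -1.85. COX5A, RIP1, ATP3 and ATP5 complete the 15. On xylose 13 had the same sign and 12 were at least 2-fold lower. The petite array lay outside the range of the 4 arrays outside the pair for 9 of the 15, and the aerobic array for 4.

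**Figure D4:**
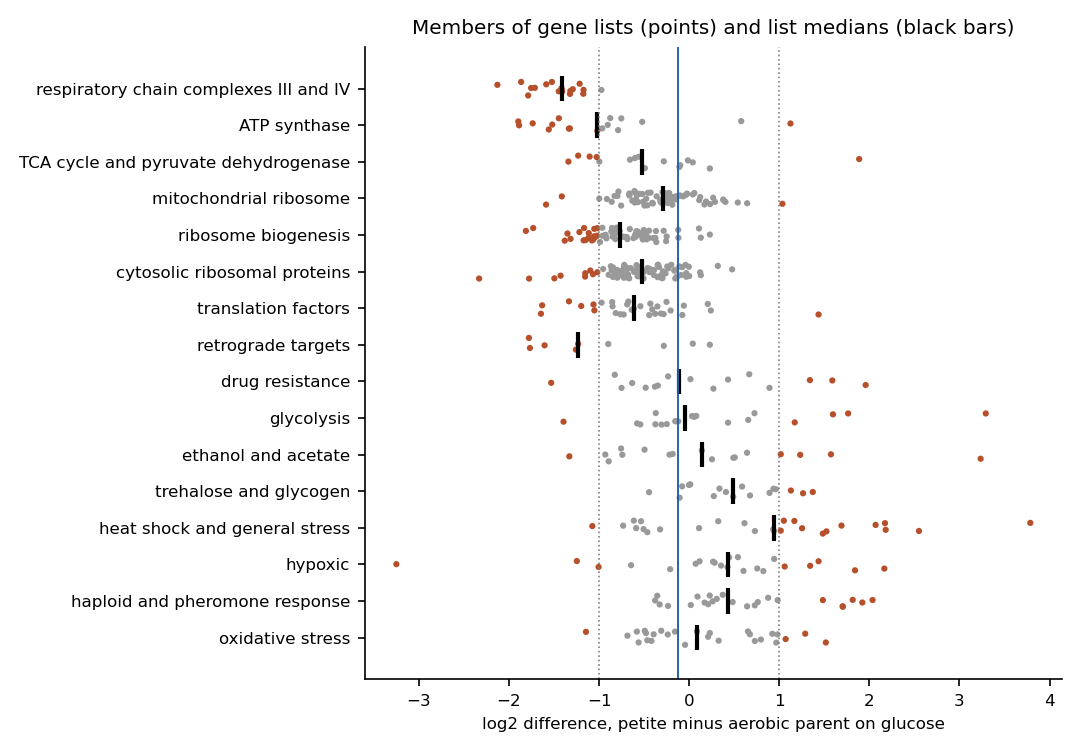
Log2 difference of petite minus aerobic parent on glucose (horizontal axis) for the members of 16 gene lists (rows), 1 array each. Points are genes, with those at or past 2-fold (dotted lines) in orange, black bars are list medians, and the blue line is the all-gene median of -0.12. The medians of the respiratory lists lie left of the blue line, and so do all 18 genes of complexes III and IV. The heat shock list reaches farthest right, with a median of 0.94.

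Heat shock and general stress genes were a further group on the higher side. Of 26 heat shock and general stress genes 12 were at least 2-fold higher, 1 was lower, and the median was 0.94. Beside HSP26 and UBI4 the highest were HSP30, a membrane heat shock protein, at 280 in petite cells against 56 in the aerobic parent (at least 2.18), and DDR48, a stress-responsive protein gene, at 2406 in petite cells against 533 in the aerobic parent (2.17). SSA2, a constitutive Hsp70, was lower at 1740 in petite cells and 3667 in the aerobic parent (-1.08), which it was no longer by 2-fold with unscaled or quantile-normalized values. The members at least 2-fold higher on both sugars numbered 6, and the xylose median was 0.18. Of 17 trehalose and glycogen genes 3 were higher and 0 lower, with a median of 0.49: the trehalase ATH1 (1.37), glycogen phosphorylase GPH1 (at least 1.26) and the debranching enzyme GDB1 (1.13). Of 27 oxidative stress genes 3 were higher (the peroxiredoxins TSA2 at 1.52 and PRX1 at 1.07, and the mitochondrial thioredoxin reductase TRR2 at 1.29) and 1 lower, GSH2, glutathione synthetase (-1.15). With unscaled values the higher counts were 6 for trehalose and glycogen and 8 for oxidative stress, where 0 were lower. For trehalose and glycogen 1 of 16 was higher with the floor at the 40th percentile, and 1 of 10 among genes at least 4 times the floor. Their xylose median was -0.41, and 0 were higher on both sugars. The oxidative stress median was 0.09, with 13 genes below 0 and 14 above. Among its genes at least 4 times the floor 1 of 20 was higher.

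Genes of ribosome production leaned the other way. Of 67 ribosome biogenesis genes 18 were at least 2-fold lower and 0 higher, with a median of -0.77. The count was 15 after quantile normalization and 5 with unscaled values, with medians of -0.61 and -0.47. NOP56, a core protein of box C/D snoRNPs, read 285 in petite cells and 1000 in the aerobic parent (-1.81). RLP7, an assembly factor, read 211 in petite cells and 702 in the aerobic parent (-1.73), NOP9, a pre-rRNA processing factor, read 115 in petite cells against 300 in the aerobic parent (-1.38), and GAR1, of box H/ACA snoRNPs, read 724 in petite cells against 1846 in the aerobic parent (-1.35). On xylose 11 of the 18 were again at least 2-fold lower. Of 80 cytosolic ribosomal protein genes 9 were lower and 0 higher (median -0.52), but 4 were lower with unscaled or quantile-normalized values, with medians of -0.22 and -0.23. RPP2A, at 1229 in petite cells against 6187 in the aerobic parent (-2.33), was the lowest of them and stood at -0.10 on xylose. RPL9B (-1.78), RPL36A (-1.50) and RPL7B (-1.43) have probe sets that share sequence with paralogues, so these values are uncertain. Removing the trend of lower differences in brighter genes gave 16 lower ribosome biogenesis genes (median -0.66) and 4 lower ribosomal protein genes (median -0.36). Genes of RNA polymerases I and III had 3 of 20 lower and 0 higher (median -0.60), led by RPA49 (-1.27), but 0 were lower with unscaled values and 1 after quantile normalization or removal of that trend. Of 31 translation factor genes 6 were lower and 1 higher, with a median of -0.62, and 3 were lower under each of those settings. TIF4631, initiation factor eIF4G, stood at -1.65 and GCD11, the gamma subunit of eIF2, at -1.63. ANB1, the anaerobic isoform of eIF5A, stood at 1.44. TEF4, a translation elongation factor and a lower member, had a difference of -1.06 from its brightest probe set and -2.64 from its other one. Of 34 proteasome genes none passed 2-fold, with a median of -0.46.

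Genes of carbon metabolism differed in both directions. The 20 glycolytic genes had 4 higher and 1 lower, with a median of -0.04 that was 0.19 after quantile normalization and 0.26 with unscaled values. TDH1 was among the higher, as were ENO1, an enolase isoenzyme, at 1874 in petite cells against 552 in the aerobic parent (1.76, from a probe set that shares sequence with other genes), GPM2, a phosphoglycerate mutase homologue (at least 1.60), and PFK26 (1.17), whose product makes fructose-2,6-bisphosphate, while its counterpart PFK27 was lower (-1.39 or lower). Among 17 ethanol and acetate genes 4 were higher and 1 lower. Behind ADH2 came the cytosolic aldehyde dehydrogenase ALD2 (at least 1.57) and the pyruvate decarboxylases PDC6 (at least 1.23) and PDC5 (1.02), while ALD6, the main cytosolic acetaldehyde dehydrogenase, was lower at 471 in petite cells and 1184 in the aerobic parent (-1.33). ADH1, the fermentative alcohol dehydrogenase, read 6067 in petite cells and 6890 in the aerobic parent (-0.18). Of 9 glyoxylate and gluconeogenesis genes, 3 were higher, namely malate synthase MLS1 (1.42), PEP carboxykinase PCK1 (1.37) and fructose-1,6-bisphosphatase FBP1 (at least 1.16), and CIT2 was lower. These higher calls depended on dim genes. With the floor at the 40th percentile 1 of 8 was higher, and among genes at least 4 times the floor 0 of 3.

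None of the 18 glucose-repressed regulators and sugar genes passed 2-fold. The glucose-repressed hexokinase HXK1 read 525 in petite cells and 333 in the aerobic parent (0.66), and HXK2 stood at -0.54. Among 12 hexose transporters HXT5, induced in slow growth, was higher at 292 in petite cells against 116 in the aerobic parent (1.33), and HXT1, the low-affinity transporter induced by high glucose, was lower at 835 in petite cells against 1892 in the aerobic parent (-1.18), although no transporter was 2-fold lower with unscaled or quantile-normalized values. The glycerol gene GPD1 stood at -0.19, and GPD2, its redox-responsive paralogue, read 144 in petite cells and 332 in the aerobic parent (-1.21), which was under 2-fold with unscaled values. In the pentose phosphate pathway 3 of 11 genes were higher, the minor isoforms GND2 (1.83), TKL2 (1.66) and NQM1 (1.19), and RKI1, ribose-5-phosphate isomerase, was lower (-1.45).

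A list of genes linked to low oxygen, which includes a repressor, held differences in both directions. Of 22 hypoxic genes 5 were higher and 3 lower, with a median of 0.43. DAN1, an anaerobic cell wall mannoprotein, read 221 in petite cells against 29 in the aerobic parent (at least 1.84), ANB1 read 927 in petite cells and 343 in the aerobic parent (1.44), and COX5B, the hypoxic counterpart of COX5A, read 156 in petite cells and 57 in the aerobic parent (at least 1.34). COX5A and COX5B thus differed in opposite directions. OLE1, the fatty acid desaturase, read 543 in petite cells and 1290 in the aerobic parent (-1.25), and ROX1, the repressor of hypoxic genes, read 159 in petite cells and 319 in the aerobic parent (-1.01). NCE103, carbonic anhydrase, was also lower and was the lowest of the list (-3.25), but it was higher on xylose (1.78). In the oxygen-limited parent NCE103 read 242 on glucose, against 2417 in the aerobic parent, so it was low there too. The lower members are thus not all genes that are high at low oxygen. The lower count was 1 with unscaled values, NCE103 at -2.94, and 1 with quantile-normalized values. The higher count was 8 with unscaled values. The seripauperins, small cell wall mannoproteins that include PAU23 in the hypoxic list (2.17), had 8 of 10 measured genes at least 2-fold higher and a median of 1.94. All 10 probe sets share sequence across the family, so these are not 10 separate measurements.

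Mating genes gave a further set with some higher members. The cells typed as MATalpha: MF(ALPHA)1, an alpha-factor gene, read 3332 in petite cells and 3581 in the aerobic parent, and MF(ALPHA)2 read 1408 in petite cells and 1415 in the aerobic parent. STE3, the a-factor receptor, read 1019 in petite cells and 1705 in the aerobic parent. Of 7 a-specific genes AGA2 and ASG7 were below the floor in both strains, the a-cell receptor gene STE2 read 77 in petite cells and 42 in the aerobic parent, and MFA1 alone passed 2-fold, at 1245 in petite cells and 588 in the aerobic parent, from a probe set whose suffix marks relaxed probe selection. Of 24 pheromone-response and haploid genes 6 were higher and 0 lower, with a median of 0.43, and 10 were higher with unscaled values. With the floor at the 40th percentile 4 of 23 were higher, and among genes at least 4 times the floor 3 of 14. AGA1, the anchor of the agglutinin, read 1005 in petite cells and 245 in the aerobic parent (2.04). PRM3, of nuclear fusion, read 312 in petite cells against 89 in the aerobic parent (1.81), and PRM1, of cell fusion, read 244 in petite cells against 75 in the aerobic parent (1.70). The other 3 were FIG1, FIG2 and PRM2. SAG1, the alpha-agglutinin, read 1442 in petite cells and 454 in the aerobic parent (1.67). On xylose 1 of the 6 was also at least 2-fold higher, and the list median was 0.13. FAR1, FUS3 and STE12 did not pass 2-fold, at 0.31, 0.26 and -0.38, and were chosen after their values were seen.

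The marker genes of the engineered loci, LEU2 and URA3, which both strains carry, did not pass 2-fold. LEU2 read 2048 in petite cells and 2026 in the aerobic parent (0.02) by its brightest probe set, and stood at -0.01 and -0.71 by its others. URA3 read 1127 in petite cells and 1644 in the aerobic parent (-0.54), and stood at -0.64 on xylose. A control probe set for URA3 read 2638 in petite cells and 3190 in the aerobic parent on glucose. On xylose that control went the other way, at 2095 in petite cells and 1196 in the aerobic parent. In addition, RNR3, a ribonucleotide reductase subunit induced by DNA damage, read 378 in petite cells and 168 in the aerobic parent (1.17), so that 2 of 11 genes of that list were higher and 0 lower. In copper and metalloreductase genes CTR1 and FRE1 (-1.74), a surface reductase, were lower, and CRS5, a metallothionein, was higher (1.12).

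The xylose arrays give a second petite and parent pair that shares no array with the first. The petite xylose cells were glucose-grown and then held in xylose, so the pair is not a repeat. Of 5287 genes compared there, 446 (8.44%) exceeded 2-fold upwards in petite cells and 712 (13.5%) downwards, 21.9% in all. Of 246 genes higher on glucose and compared in both pairs, 125 were also at least 2-fold higher on xylose, which is 50.8% of the glucose set and 28.7% of the 435 xylose genes. Of 265 lower on glucose, 169 were lower on xylose, 63.8% of the glucose set and 23.8% of the 711. The signs were alike for 221 of the higher and 240 of the lower genes, and 2 and 8 were past 2-fold the opposite way. The median xylose difference was 1.01 for the genes higher on glucose and -1.20 for those lower.

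**Figure D5:**
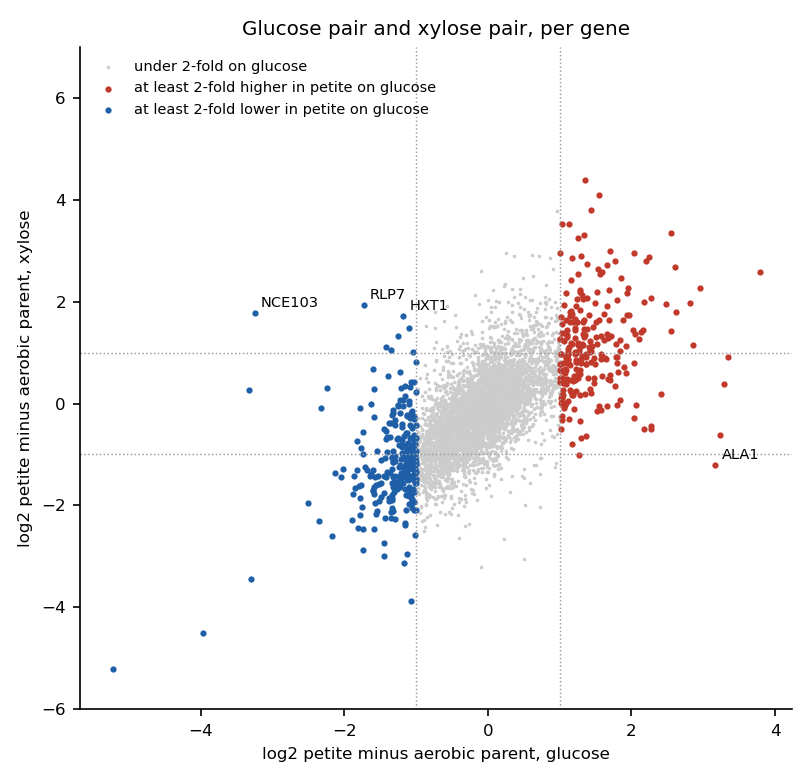
Log2 difference of petite minus aerobic parent on glucose (horizontal axis) and on xylose (vertical axis) for 5195 genes compared in both pairs, 1 array per culture. Red points are the genes at least 2-fold higher on glucose, blue points those at least 2-fold lower, and dotted lines mark 2-fold. Most coloured points keep their sign, and NCE103, RLP7, HXT1 and ALA1 are among the 10 past 2-fold in opposite directions.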

How the data were processed

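Total RNA of 6 cultures, 1 array per condition, was hybridised to Affymetrix yeast arrays after oligo-dT priming, per the labels' protocols. The deposited intensity of each probe set is on a linear scale. Which software, averaging or scaling made it is not given in the sources used here. Among 9335 probe sets, 60 were controls and 1 had no value. Of the 9274 others, 6504 named 1 gene, 328 several and 2442 none in the platform annotation.

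With Python 3.11.15, pandas 2.3.3 and numpy 2.4.6, intensities were multiplied so that all arrays had the same median over yeast probe sets, values below the 25th percentile were raised to it (61.7), and log2 was taken without a pseudocount. The probe set with the highest mean over the 6 arrays stood for its gene. Genes with both arrays at the floor (384) were left out and those with 1 there (393) gave bounds. The calculation was tested on simulated data. No test was run, and having 1 array per condition limits the precision.

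The members and the 65 gene lists were chosen with earlier results of these data known. Named genes are the 15 highest and 15 lowest with a standard name whose brighter array is at least 4 times the floor, up to 4 list members per direction past 2-fold, and a set of retrograde, drug resistance, sugar, cytochrome and mating genes. Alternatives changed the scaling, the floor, the probe set choice, the threshold, the filter on dim genes and a trend along probe set numbers. Promoter motifs were not analysed here.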

Additional observations from a re-analysis of the deposited data

Results flagged for a closer look

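A set of 10 genes was at least 2-fold different in opposite directions in the glucose and xylose pairs, each pair being 1 petite and 1 aerobic array. The difference between pairs was not tested. ALA1 stood at 3.17 on glucose and -1.22 on xylose, with intensities of 688 in petite cells and 77 in the aerobic parent on glucose and 490 in petite cells and 1138 in the aerobic parent on xylose. GPH1, glycogen phosphorylase, stood at least 1.26 higher on glucose, and on xylose it read 182 in petite cells and 365 in the aerobic parent.

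The other 8 were lower in petite cells on glucose and higher on xylose. NCE103, carbonic anhydrase, stood at -3.25 and 1.78, and its 3002 on the petite xylose array was the highest of the 6, against 254 on the petite glucose array. HXT1 stood at -1.18 and 1.72, and RLP7 at -1.73 and 1.94. CIN5, a stress transcription factor, stood at -1.11 and 1.49, and DOM34, a ribosome rescue factor, at -1.26 and 1.33. SOL1 stood at -1.35 and 1.04, SKS1, a protein kinase, at -1.05 and 1.02, and the small nuclear RNA gene SNR19 at -1.42 and 1.11.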

How the results depend on the processing

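The 249 higher and 266 lower genes became 471 and 105 with unscaled values, and 72 and 45 at a 3-fold threshold. The higher count became 150 with the floor at the 40th percentile, and 128 among the 2819 genes at least 4 times the floor. The other count alternatives, 14 in number, stayed within 1.5 times, including 200 lower of those 2819 genes. No count, named gene, list median or chromosome median past 2-fold changed sign under an alternative. Each list median, named gene and chromosome median was recomputed under each alternative. Counted over item and alternative together, 567 list values, 451 gene values and 144 chromosome values stayed within 0.51, the SD between probe sets of a gene, and 4 list values and 12 gene values moved further. For unscaled values this tally says little. A gene above the floor on both arrays, by the same probe set, then moves by 0.31, so it could not move past 0.51. Chromosome values are taken from the all-gene median, so most of that shift cancels. Both the alternative removing the trend with intensity (254 higher, 225 lower) and the one using only probe sets without a shared-sequence suffix (214 higher, 249 lower) were chosen after seeing the data. No paired analysis was possible because the glucose comparison has 1 array per strain. The xylose pair, whose petite cells were treated differently, is set beside it and was not pooled with it. Values near the floor limit dim genes to bounds, and no interval can be given.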

Other observations

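Other metabolic groups held smaller sets of differences. Of 14 glycine, serine and one-carbon genes 4 were higher, among them the glycine decarboxylase subunits GCV2, at 1214 in petite cells and 299 in the aerobic parent (2.02), and GCV1 (1.35), and 3 were lower, including threonine aldolase GLY1 (-1.19). None was lower with unscaled or quantile-normalized values or with the intensity trend removed. Of 29 methionine and sulfate genes 5 were higher, led by MET32 and MET16, PAPS reductase (1.63), and 2 were lower, CYS4, cystathionine beta-synthase (-1.20), and MET22 (-1.05). With unscaled values 10 were higher, and 0 were lower with unscaled or quantile-normalized values. Glutamate dehydrogenase GDH3 read 301 in petite cells and 63 in the aerobic parent (2.25), and the general amino acid permease GAP1 read 415 in petite cells and 140 in the aerobic parent (1.57). Of 15 aromatic amino acid genes 3 were lower and 0 higher (median -0.74), with ARO9 at -1.58 and ARO10 at -1.38, both of the breakdown of aromatic amino acids.

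Of 14 fatty acid synthesis genes 4 were lower, including FAS2 (-1.01), and 2 were higher, the inositol synthase INO1 (1.80) and OPI3 of phosphatidylcholine synthesis, at 1226 in petite cells against 435 in the aerobic parent. The lower count was 0 with unscaled or quantile-normalized values and 1 with the intensity trend removed. FAS1, named after its values were seen, differed by -0.61 by its brightest probe set and by -3.60 to -0.91 by its 7 others. The value of FAS2 is likewise from its brightest probe set. Its next brightest stood at -0.71, and dimmer ones ran from -3.64 or lower to -0.03 or lower. GSC2, a stress-responsive glucan synthase, read 692 in petite cells against 178 in the aerobic parent (1.96) by its brightest probe set. Its next brightest stood at 0.97, and dimmer ones at -0.33 or lower and -0.60 or lower. The rest of its probe sets were below the floor in both strains. The adhesin FLO11 read 469 in petite cells against 202 in the aerobic parent (1.22). The aryl-alcohol dehydrogenases AAD4 (2.04), AAD10 (1.25) and AAD14 (1.02) were higher in all 3 compared genes, AAD4 from a shared probe set.

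Of 290 compared probe sets that name several genes, 45 (15.5%) were at least 2-fold higher in petite cells and 23 (7.93%) lower. Of 5749 that name 1 gene, 279 (4.85%) were higher and 350 (6.09%) lower. The difference between these shares was not tested.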
